A study of Anser cygnoides with 4 samples.

Results

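The genes described here are PTGS2, HPGD, HPGDS and ANXA1, which were picked by symbol for their roles in making, removing and counteracting prostaglandins, 4 of the 25487 genes counted in the matrices. The data are 10x Genomics single-cell libraries of cells from the leg muscle of female Zhedong White goose embryos, 1 library for each of 4 stages named by embryonic day (E13 to E23, with E15 and E18 between them), with no treatment or genetic change in any of them. Each library came from pooled embryos, 4 per stage by the methods of the study and 3 by the sample labels. Fibroblasts were reduced by differential plating to enrich satellite cells, and the cells were frozen and thawed before capture. The share of each cell type is therefore not its share in the muscle. Whether digestion, plating, freezing or thawing changed transcript levels was not tested. After limits on genes and UMIs (unique molecular identifiers, each marking a captured RNA molecule) and the removal of likely doublets, 13857, 10400, 10226 and 9987 cells remained from E13 to E23, with a median of 7925 to 10623 UMIs per cell. Between 21 and 39 cell barcodes were shared by any pair of libraries.

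Prostaglandins are short-lived lipid signals made from arachidonic acid, which phospholipases cut from membranes. Cyclooxygenases turn it into a common precursor, terminal synthases shape that into prostaglandin E, D, F or prostacyclin, and receptors on neighbouring cells read it. Transporters take the signal up and dehydrogenases inactivate it. In mammalian muscle, prostaglandin E released around an injury is known to act on satellite cells, the muscle stem cells. Annexin A1 is a protein known in mammals for damping inflammation and for restraining phospholipase A.

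Cells were sorted by UMIs of marker genes. Fibro-adipogenic progenitors (FAPs, the connective tissue cells of muscle) held at least 5 UMIs each of DCN and COL6A3 and none of PAX7 or MYOG. Satellite cells held at least 2 of PAX7 and none of MYOG, myocytes at least 2 of MYOG and 10 of ACTC1, and immune cells at least 2 of PTPRC. There were 5090 FAPs, 11895 satellite cells, 8683 myocytes and 379 immune cells, while 18352 cells fell in no class. Markers that formed no gate followed the names, on the CPM scale, the UMIs of a gene relative to all UMIs of the same class and library. PDGFRA, a FAP marker, stood at 57.6 to 92.7 CPM in FAPs and at 0.923 to 1.62 CPM in satellite cells, and CSF1R, a macrophage receptor, at 68.3 to 111 CPM in immune cells and at no more than 2.71 CPM in FAPs. Immune cells numbered only 68, 26, 92 and 193 in the 4 libraries, and the 26 cells at E15 also held 1507 CPM of the myocyte gene ACTC1. Each stage is 1 library, so stages were not tested against each other, and the levels of the 4 genes by class, which were used to choose them, are given without a test. Intervals are exact at 95% and cover counting error only.

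PTGS2 encodes the inducible cyclooxygenase, which catalyses the committed step from arachidonic acid. FAPs held 110.2, 67.2, 76.9 and 368 CPM from E13 to E23. Satellite cells held 2.45, 1.74, 3.67 and 7.07 CPM in the same order, and myocytes 1.87, 0.0742, 0.322 and 1.45. The lowest FAP library was thus above the highest satellite library, and the FAP level was higher than the satellite level in 4 of 4 libraries by a mean log2 ratio of 5.21 ± 0.58 (SD, n = 4), a 37.1-fold difference. With doublets kept it was 3.89, without limits on barcodes 3.73 and with looser gates 4.52. Immune cells held 24.4, 49.5, 79.2 and 203 CPM. By mean level the order was FAPs, 156 ± 143 CPM, immune cells, 89.1 ± 79.3, satellite cells, 3.73 ± 2.36, and myocytes, 0.929 ± 0.867 (SD, n = 4 each). FAPs and immune cells overlapped across libraries, as did satellite cells and myocytes, whereas every immune library lay above every satellite library. E23 was the highest library in FAPs, satellite cells and immune cells.

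HPGDS encodes the hematopoietic prostaglandin D synthase, named in mammals for its expression in immune cells. In these libraries FAPs held 519, 492, 476 and 57.9 CPM from E13 to E23, so the last library stood 8.97-fold below the first. Satellite cells held 9.02, 3.40, 19.2 and 0.759 CPM and myocytes 7.23, 3.32, 4.18 and 0.321, the last from 2 counts. Few cells carried these levels. The 629 counts of satellite cells at E18 lay in 163 of 2860 cells, with up to 70 in 1 cell. The highest myocyte at E15 held 51 of the 134 counts of its class. Immune cells held 75.7, 37.2, 16.5 and 9.54 CPM, from 9 to 31 counts. FAPs were above immune cells within each of the 4 libraries, with a mean log2 ratio of immune cells over FAPs of -3.49, although the FAP level at E23 was below the immune level at E13. The mean log2 ratio of FAPs over satellite cells was 5.98 ± 1.05 (SD, n = 4), and 4.75, 4.501 and 4.53 under the same 3 changes. The order by mean level was FAPs, 386 ± 220 CPM, immune cells, 34.7 ± 29.7, satellite cells, 8.10 ± 8.17, and myocytes, 3.76 ± 2.84, where immune cells overlapped satellite cells and satellite cells overlapped myocytes. HPGDS was lowest at E23 in all 4 classes, the library in which PTGS2 was highest in FAPs. Endothelial cells, with at least 2 UMIs of PECAM1, are in none of these orders and numbered 27, 11, 30 and 55. Of them 7 at E13, 0 at E15 and 1 each at E18 and E23 were also FAPs. Endothelial cells held 341, 0, 144 and 1.86 CPM of HPGDS and 111, 0, 0 and 20.5 CPM of PTGS2.

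ANXA1 was the member with high levels in immune cells at every stage, 227, 359, 222 and 233 CPM from E13 to E23. FAPs held 299, 77.6, 206 and 121 CPM, satellite cells 21.1, 7.22, 59.6 and 11.1, and myocytes 3.62, 0.569, 3.54 and 3.86. By mean level, immune cells, 260 ± 66.0 CPM, and FAPs, 176 ± 97.8, overlapped, and satellite cells, 24.8 ± 23.9, and myocytes, 2.90 ± 1.56, lay below them without overlap of libraries. The log2 ratio of FAPs over satellite cells averaged 3.12 ± 0.91 (SD, n = 4) and was smallest at E18, at 1.79. E15 was the lowest library for ANXA1 in FAPs, satellite cells and myocytes and the highest in immune cells, where the level rested on 87 counts in 26 cells. The few endothelial cells held 188, 43.6, 168 and 98.7 CPM of ANXA1, from 4 to 54 counts.

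HPGD encodes 15-hydroxyprostaglandin dehydrogenase, the enzyme that starts the inactivation of prostaglandins. Its levels were low in every class. FAPs held 3.53, 7.83, 3.85 and 5.46 CPM from E13 to E23, and satellite cells 2.81, 7.19, 3.21 and 2.69. The mean log2 ratio of FAPs over satellite cells was 0.44 ± 0.40 (SD, n = 4), and the ranges overlapped. With stricter gates the ratio turned to -1.65. Single cells carried much of this level. The FAP richest in HPGD held 16 of 98 HPGD UMIs of FAPs at E13, 72 of 81 at E15, 61 of 108 at E18 and 45 of 117 at E23. Without that cell FAPs held 2.96, 0.870, 1.68 and 3.36 CPM, below satellite cells at E15 and E18, and the mean log2 ratio was -0.90 ± 1.53. Myocytes held 0.323, 0.322, 0.376 and 0.643 CPM, and immune cells had 1, 0, 2 and 2 counts, of which the 0 at E15 has an upper bound of 15.2 CPM. The cells in no class held more, at 9.82, 21.2, 30.7 and 7.27 CPM.

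**Figure D1:**
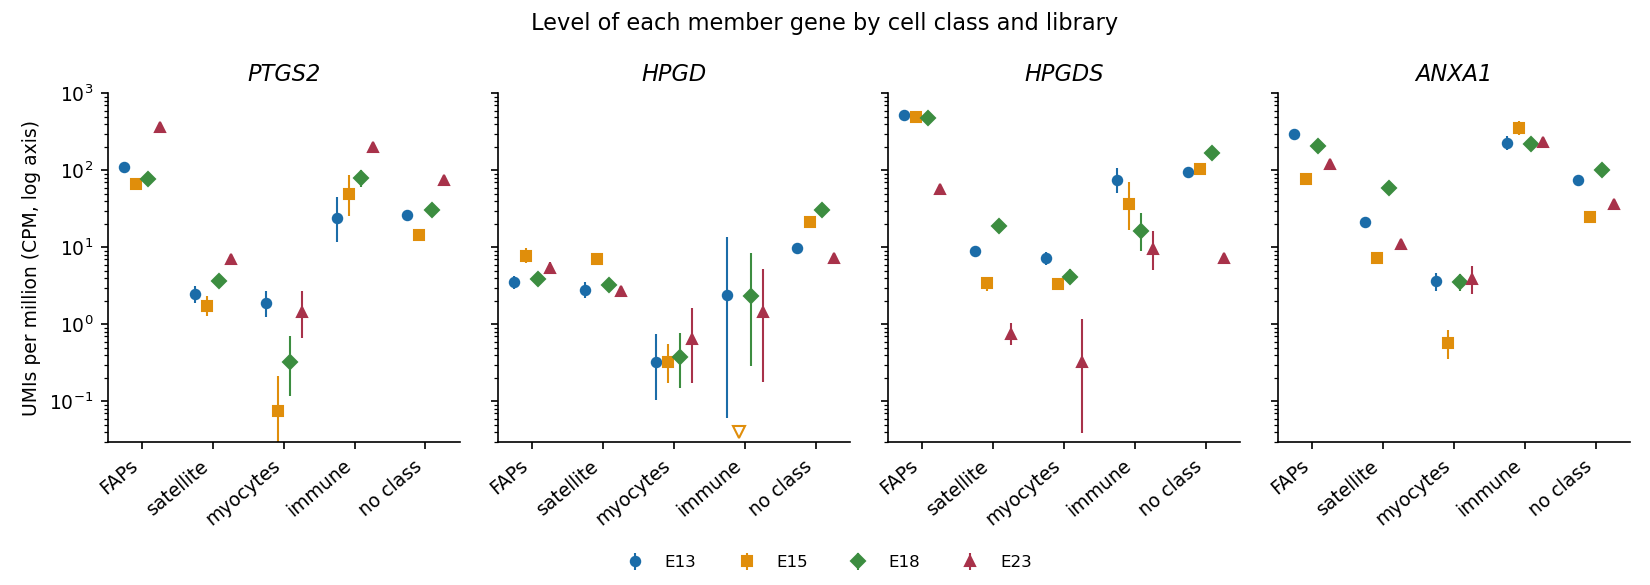
Level of each gene in CPM (log axis) by cell class, 1 point for each library (E13 blue circles, E15 orange squares, E18 green diamonds, E23 red triangles) with exact 95% Poisson intervals, and an open triangle at the bottom where no UMI was counted. Endothelial cells are not drawn. PTGS2 and HPGDS were higher in FAPs than in satellite cells in 4 of 4 libraries, and ANXA1 in immune cells lay between 222 and 359 CPM. HPGD was highest in the cells of no class, at 7.27 to 30.7 CPM.

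Cells that missed the FAP gate by little carried the same genes. Among cells without PAX7 or MYOG whose lower count of DCN and COL6A3 was 5 or 6, HPGDS stood at 397, 338, 435 and 45.3 CPM from E13 to E23, and among those with 3 or 4 at 284, 257, 382 and 18.7. PTGS2 stood at 99.97, 156, 67.1 and 374 CPM just inside the gate and at 78.2, 51.1, 71.1 and 330 just outside it. ANXA1 stood at 225, 73.2, 161 and 98.1 CPM just inside and at 225, 110.2, 192 and 122 just outside. HPGDS was thus higher just inside in 4 of 4 libraries and PTGS2 in 3, while ANXA1 was higher just outside at E15, E18 and E23. HPGD stood at 4.34 CPM inside and 17.0 outside at E13 and at 4.07 inside and 155 outside at E15. At E18 and E23 it stood at 23.5 and 21.5 CPM inside and 6.93 and 5.99 outside. A single FAP, with 61 UMIs, supplied most of the 76 HPGD counts just inside at E18. The cells just inside at E23 held 58 counts, and whether the richest FAP, with 45 UMIs, was among them was not examined.

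Cells of different depth catch a rare transcript unequally, so each cell was thinned to 4000 UMIs before shares of cells were compared. Full median depths were 16617.5 UMIs in FAPs, 10563 in satellite cells and 8595 in myocytes. After thinning, a PTGS2 UMI was found in 19.6%, 12.2%, 14.2% and 40.9% of FAPs from E13 to E23. HPGDS was found in 37.7%, 42.2%, 48.6% and 11.4% of FAPs and ANXA1 in 43.9%, 18.3%, 40.2% and 25.2%. HPGD was found in 1.16%, 0.353%, 0.501% and 0.932%. Myocytes, the class with the lowest mean level of each gene, had PTGS2 in 0 to 0.530% of thinned cells, HPGDS in 0.132 to 2.25%, ANXA1 in 0.210 to 1.45% and HPGD in 0.107 to 0.237%. The FAP shares of all 4 genes were above the myocyte share of the same library, by the least for HPGD. In satellite cells HPGD was found in 0.973%, 2.69%, 1.19% and 1.24%, above the FAP share at E15, E18 and E23. Without thinning, the FAP shares were 37.6%, 26.0%, 32.5% and 62.4% for PTGS2, 50.3%, 54.0%, 64.9% and 19.5% for HPGDS, 67.1%, 36.9%, 68.3% and 48.0% for ANXA1, and 3.29%, 1.04%, 1.22% and 2.86% for HPGD. In thinned satellite cells ANXA1 was found in 16.6% at E18 and in 2.05 to 6.19% in the other libraries. PTGS2 was found in 0.384 to 1.03% of thinned satellite cells and HPGDS in 0.237 to 2.49%.

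**Figure D2:**
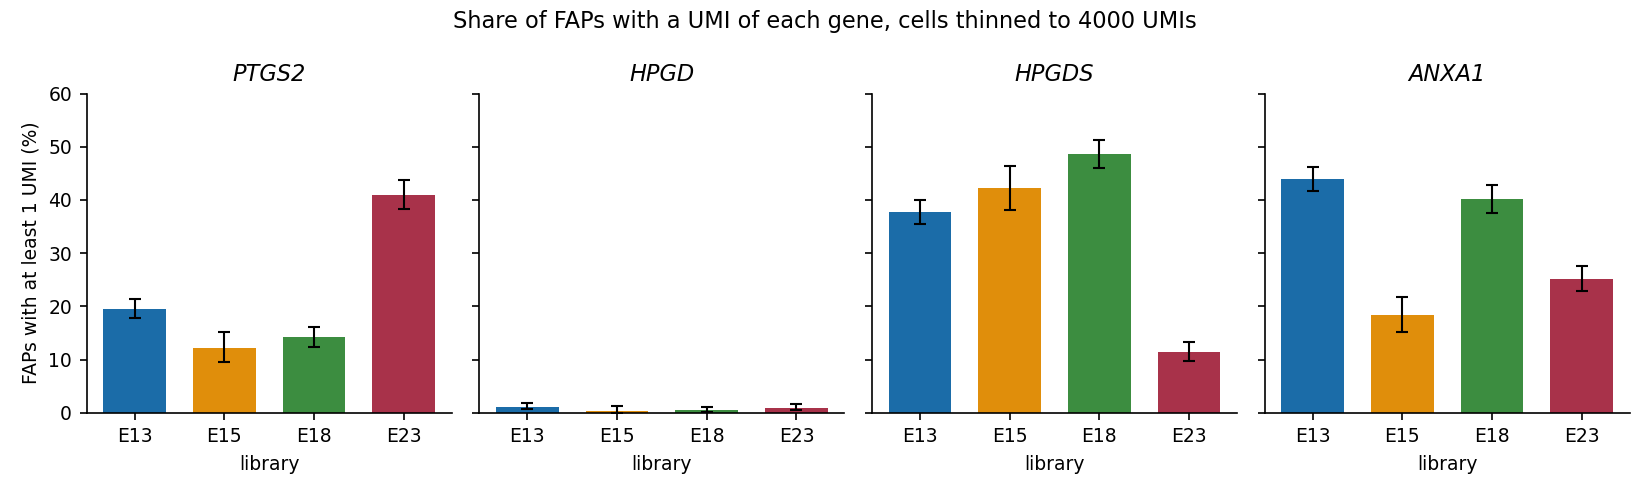
Percent of FAPs with at least 1 UMI of each gene after every cell was thinned to 4000 UMIs, by library, with exact 95% binomial intervals as bars. PTGS2 was found in 40.9% of FAPs at E23 and in 12.2 to 19.6% before, HPGDS in 11.4% at E23 and in 37.7 to 48.6% before, and HPGD in at most 1.16%.

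Within FAPs the transcripts were spread unevenly. At full depth the 10% of FAPs with the most PTGS2 UMIs held 71.7%, 81.6%, 74.7% and 59.8% of them from E13 to E23, and the highest FAP of each library held 93, 49, 122 and 130. The most HPGDS-rich 10% held 61.0%, 55.3%, 48.3% and 87.2%, and the median positive FAP had 8, 10, 9 and 3 UMIs. For ANXA1 the richest 10% held 53.2%, 68.9%, 46.8% and 55.8%. HPGD was seen in only 60, 6, 17 and 37 FAPs at full depth, and in 50.0 to 83.8% of these by 1 UMI.

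Detection of PTGS2 and of HPGDS in the same FAP was described after thinning. In FAPs with PTGS2, HPGDS was found in 38.2%, 44.9%, 49.5% and 13.1% from E13 to E23, and in FAPs without it in 37.6%, 41.8%, 48.4% and 10.2%. These shares are a description, since co-detection was used to choose the genes. HPGD was found in only 21, 2, 7 and 12 FAPs, with PTGS2 in 9, 1, 1 and 6 of them and with HPGDS in 6, 0, 3 and 0. PTGS2 was thus in 42.9%, 50.0%, 14.3% and 50.0% of them, and in 19.3%, 12.0%, 14.2% and 40.8% of FAPs without HPGD. For HPGDS the shares were 28.6%, 0%, 42.9% and 0% against 37.8%, 42.3%, 48.6% and 11.5%. All 3 transcripts were found together in 2 of 1818, 0 of 567, 1 of 1396 and 0 of 1288 FAPs. The upper bounds of these shares were 0.397%, 0.648%, 0.398% and 0.286%. None of the 3 was found in 49.7%, 51.0%, 44.0% and 52.6% of FAPs. Without thinning, all 3 were found in 16, 0, 5 and 5 FAPs. ANXA1 differed most at E23, where it was found in 31.9% of FAPs with PTGS2 and 20.5% of those without.

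Most HPGD transcripts lay outside the named classes at E13, E15 and E18 but not at E23. Of all HPGD UMIs in kept cells, FAPs held 13.5%, 7.83%, 7.76% and 23.5% from E13 to E23, and the cells in no class 75.9%, 72.5%, 84.0% and 48.7%. For PTGS2 FAPs held 65.8%, 54.7%, 61.4% and 71.5% of the UMIs, for HPGDS 71.6%, 56.6%, 65.0% and 80.8%, and for ANXA1 62.6%, 40.5%, 48.6% and 55.3%. HPGD was therefore followed into the cells that held it, a step added after the levels had been seen.

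**Figure D3:**
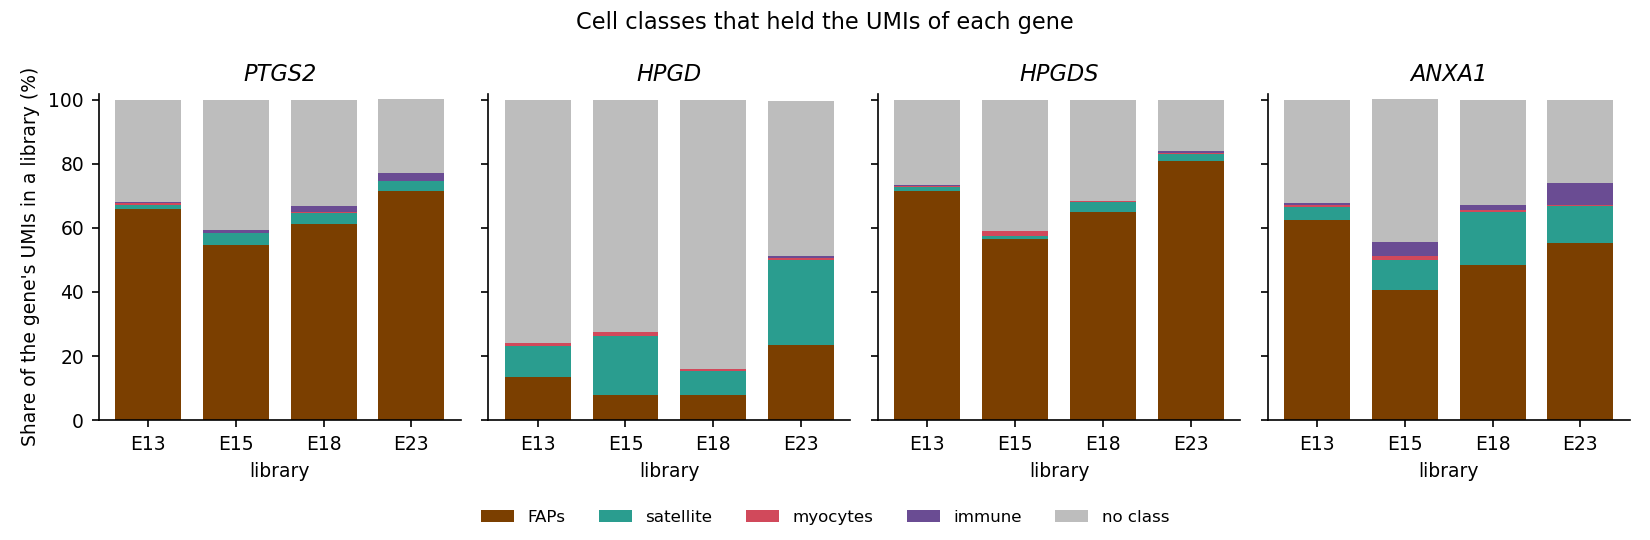
Share of all UMIs of each gene in a library, in percent, held by FAPs, satellite cells, myocytes, immune cells and cells in no class. A few cells count in 2 classes and the rare endothelial cells are not drawn, so bars end near 100. FAPs held 54.7 to 71.5% of PTGS2 and 56.6 to 80.8% of HPGDS, and the cells in no class 48.7 to 84.0% of HPGD.

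Just 152 cells held 5 or more HPGD UMIs, 40, 27, 68 and 17 from E13 to E23, and with them 52.2%, 68.8%, 76.9% and 46.3% of the HPGD UMIs. Only 9 were FAPs, 6 were satellite cells, none was a myocyte or immune cell, and 137 were in no class. The gate on DCN and COL6A3 was failed by 138 of them, and 45 had no DCN UMI, 34 of these at E18. Their median depth was 6559, 6025, 3783 and 4814 UMIs, below that of FAPs in each library. The gate asks for fixed UMI counts, so a shallow cell fails it more easily, and at E18 0 FAPs had under 4000 UMIs. How far depth set the number that failed was not tested. Cells with 5 or more HPGDS UMIs were deeper, at medians of 16560, 21250, 20737 and 16787.5 UMIs. Of these 2224 cells 1500 were FAPs, and of 1129 such cells for PTGS2 756 were.

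The summed FAP markers (DCN, CDH11, COL6A3 and PDGFRA) stood at 1384, 1287, 1189 and 1359 CPM in these HPGD-rich cells, and at 999, 768, 1126 and 1273 in the rest of the kept cells. FAPs, which were gated on DCN and COL6A3, held 2622 to 3534 CPM of them. Immune markers stood at 0 to 28.4 CPM, endothelial markers at 0 to 8.60 and satellite markers at 66.3 to 722, the last of these at E23. Genes other than HPGD that averaged 100 CPM or more in the HPGD-rich cells were ranked. The rank went by the smallest ratio over the 4 libraries, a description with no test. A filter set on the HPGD-rich cells alone favours genes high in them, so the leading ratios are no support for a difference. The levels at E23 rest on 17 HPGD-rich cells. CNRIP1 led, at 93.8, 116, 218 and 94.6 CPM against 0.486 to 1.48 in the rest of the kept cells. NR4A1, an immediate early nuclear receptor, followed, at 308, 271, 256 and 172 CPM against 3.23 to 6.15. Then came CNN1, a calponin, at 161, 93.9, 104 and 68.8 CPM against 1.02 to 2.84, CSMD1, and LOC106034806, a gene without a name. KLF2, a factor known for its response to blood flow and stress, stood at 2878, 2320, 2199 and 1565 CPM against 33.4 to 167. OSR1, a connective tissue factor, stood at 851, 1127, 356 and 894 CPM against 8.10 to 34.1. The stress list (HMOX1, SLC7A11, OSGIN1, ATF3 and KLF2) was at 5088, 4259, 3852 and 2064 CPM, where the other cells had 2964, 167, 140 and 242, and KLF2 made up much of it. Without KLF2 the list was at 2211, 1939, 1653 and 499 CPM against 2797, 120, 106 and 196, so it was lower in the HPGD-rich cells at E13 and higher in the other 3 libraries. The immediate early list was at 3846, 3546, 1275 and 1462 CPM against 520, 425, 348 and 736. Their part in the HPGD level was not tested.

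To place the 4 genes in their pathway, 61 further genes of 9 lists were considered, of which 40 were analysed, and 33 could be tested between FAPs and satellite cells with edgeR's quasi-likelihood test, the library as a block. Of these genes 6 were higher in FAPs and 5 lower at an adjusted p under 0.05, beside 40% of all 13858 genes tested, with 20.6% higher and 19.3% lower. The median log2 fold change of the list was 0.09, and 0.00 over all genes. The list was thus called no more often than genes at large.

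The phospholipase PLA2G4A, which frees arachidonic acid inside cells, stood at 60.8, 55.1, 66.4 and 160 CPM in FAPs and at 12.3, 16.3, 16.7 and 27.3 in satellite cells. Each FAP library was above each satellite library, with a log2 fold change of 2.27 ± 0.14 (SE, edgeR adjusted p = 0.00110). Of 8 phospholipases tested it alone passed. Like PTGS2, it was highest at E23 in both classes. Its level was higher in immune cells than in FAPs, as given below. PTGS1, the constitutive cyclooxygenase, was lower in FAPs, at 1.77, 3.38, 5.31 and 4.62 CPM against 4.00, 4.99, 9.23 and 13.0 (log2 fold change -0.90 ± 0.21, edgeR adjusted p = 0.0230). That call was lost without E13, without E18 or without E23, with edgeR adjusted p of 0.0644, 0.0656 and 0.0745.

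Among 4 terminal synthases tested, PTGES, which makes prostaglandin E, was higher in FAPs, at 85.5, 88.0, 144 and 211 CPM against 57.8, 54.8, 63.1 and 119.6 (log2 fold change 0.93 ± 0.12, edgeR adjusted p = 0.00435). PTGES2, PTGES3 and the thromboxane synthase TBXAS1 did not pass. Of 3 transporters, SLCO2A1, the prostaglandin uptake carrier, showed the widest difference of all 33 genes. It stood at 27.2, 67.9, 58.5 and 7.56 CPM in FAPs and at 2.14, 1.40, 0.886 and 1.07 in satellite cells (log2 fold change 4.63 ± 0.65, edgeR adjusted p = 0.00560). Its lowest FAP library was E23, as for HPGDS. SLCO3A1, a related carrier, was higher by 1.18 ± 0.29 on the log2 scale (edgeR adjusted p = 0.0257) and lost the call without E18 and without E23, at 0.0655 and 0.0728. ABCC4, an exporter, did not pass.

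Of 3 prostaglandin reductases tested, PTGR1 was lower in FAPs by a log2 fold change of -1.14 ± 0.14 (edgeR adjusted p = 0.00420), at 9.49, 5.70, 5.67 and 12.9 CPM against 21.2, 16.8, 15.5 and 23.6. PTGR2 and PTGR3 did not pass. The receptors moved in both directions. PTGFR, the receptor for prostaglandin F, was higher in FAPs, at 10.4, 7.15, 9.10 and 6.44 CPM against 1.46, 1.36, 3.39 and 4.35 (log2 fold change 1.88 ± 0.42, edgeR adjusted p = 0.0198, and 0.0559 without E13, 0.0654 without E15 and 0.0577 without E18). PTGER3, a receptor for prostaglandin E, was lower in FAPs, at 3.17, 3.48, 1.53 and 1.82 CPM against 9.06, 12.4, 10.1 and 9.51 (log2 fold change -1.99 ± 0.25, edgeR adjusted p = 0.00401). PTGER4, another such receptor, and the thromboxane receptor TBXA2R did not pass.

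Of 6 other annexins tested, none was higher in FAPs. ANXA11 was lower (log2 fold change -0.85 ± 0.24, edgeR adjusted p = 0.0384, and 0.0608 without E15 and 0.116 without E18 or E23) and ANXA2, ANXA4, ANXA5, ANXA6 and ANXA7 did not pass. S100A11, a known binding partner of annexin A1, was higher in FAPs by 0.59 ± 0.10 on the log2 scale (edgeR adjusted p = 0.00825), and S100A10, the partner of annexin A2, was lower, at -0.85 ± 0.09 (edgeR adjusted p = 0.00260). LTA4H and LTC4S of the lipoxygenase branch, which leads to leukotrienes, did not pass. Whether ANXA1 and another annexin differed from each other in this contrast was not tested.

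**Figure D4:**
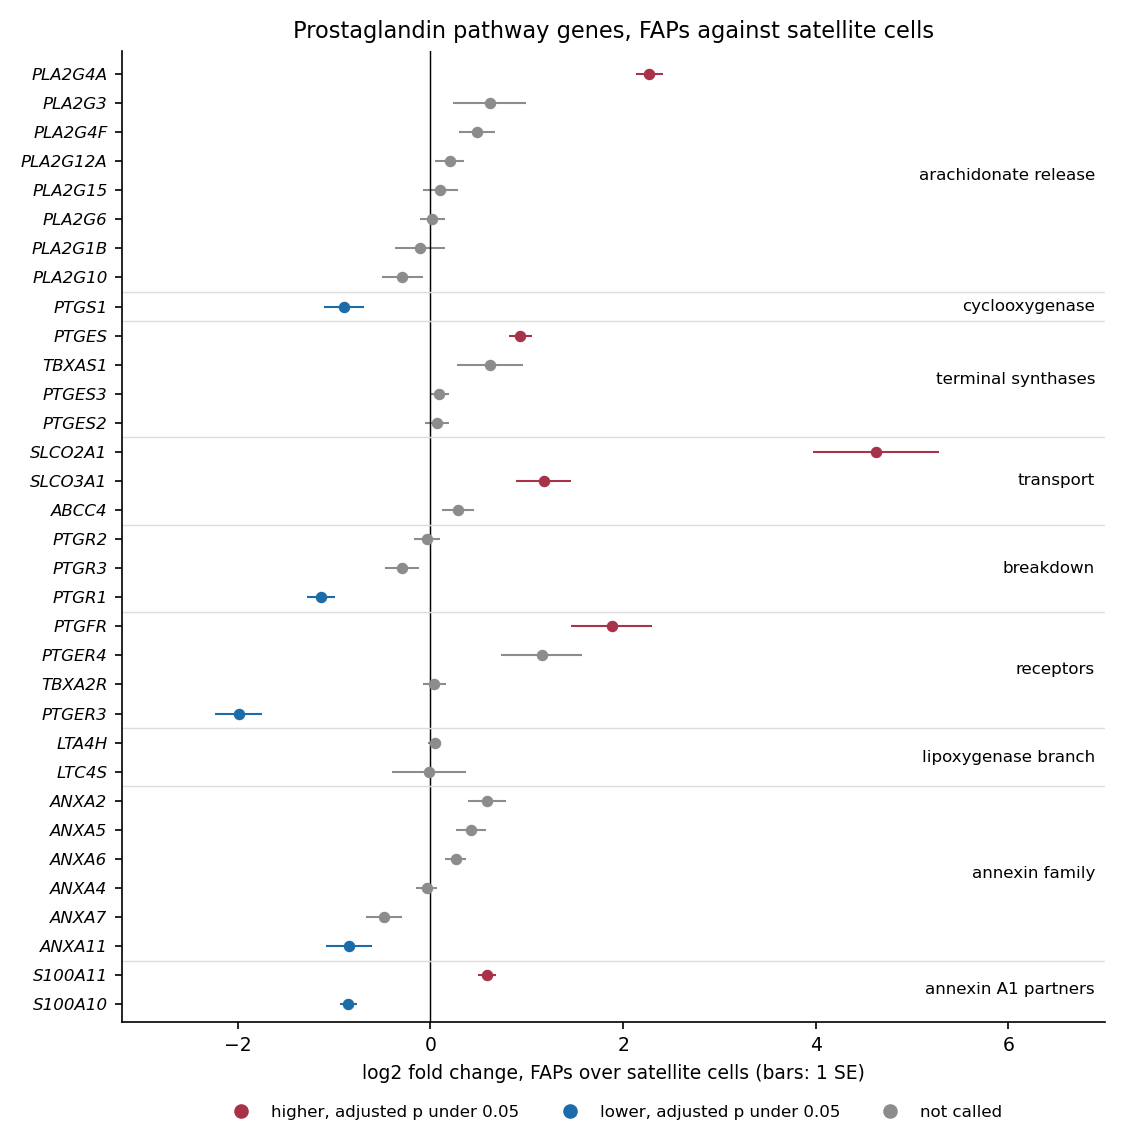
Log2 fold change of 33 pathway genes between FAPs and satellite cells (points, with bars of 1 SE), grouped by list and coloured by the edgeR call. The 6 genes called higher reach from 0.59 for S100A11 to 4.63 for SLCO2A1, and the 5 called lower from -0.85 to -1.99 for PTGER3.

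Immune cells held more lipoxygenase pathway transcripts than FAPs. Of 33 pathway genes tested 12 were higher in immune cells and 8 lower, beside 44.9% of all 11668 genes called (21.4% higher, 23.5% lower). All 3 lipoxygenase genes tested were higher. ALOX5AP, the 5-lipoxygenase activating protein, stood at 48.8, 28.9, 164 and 58.0 CPM in immune cells and at no more than 0.140 in FAPs, from 1 to 3 counts a library (log2 fold change 9.91 ± 0.50, edgeR adjusted p = 1.41e-06). LTA4H, which makes leukotriene B, stood at 393, 355, 357 and 372 CPM against 37.2 to 52.8 (log2 fold change 2.97 ± 0.15, edgeR adjusted p = 1.35e-06). ALOX5 itself stood at 19.5, 4.13, 21.3 and 25.7 CPM and had 3 counts in FAPs at E13 and none later. TBXAS1 was higher in immune cells by 5.50 ± 0.77 on the log2 scale (edgeR adjusted p = 0.000527) and the lysosomal phospholipase PLA2G15 by 3.88 ± 0.17 (edgeR adjusted p = 7.74e-07). PLA2G4A was higher in immune cells as well, by 0.89 on the log2 scale (edgeR adjusted p = 0.0119). It was called in 7 of 8 alternatives that kept the library block and not without the block (edgeR adjusted p = 0.112). Lower in immune cells were PTGES, at -1.52 ± 0.32 (edgeR adjusted p = 0.00468), and SLCO2A1, at -1.40 ± 0.47 (edgeR adjusted p = 0.0393). SLCO2A1 stood at 2.44, 86.7, 13.0 and 1.47 CPM in immune cells, and its level at E15 was above that of FAPs. Without E13, E18 or E23 the call was lost, at edgeR adjusted p of 0.102, 0.180 and 0.0995.

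In myocytes 6 of 33 pathway genes were higher than in satellite cells and 11 lower, beside 45.1% of all 14006 genes called (22.7% higher, 22.4% lower). PLA2G4A was lower, by a log2 fold change of -2.73 ± 0.25 (edgeR adjusted p = 0.00142), to between 1.39 and 3.86 CPM. PTGES, PTGR1, PTGER3 and PTGER4 were lower as well, PTGER4 by the most, at -2.81 ± 0.63 (edgeR adjusted p = 0.0169, and 0.0540 without E18 or 0.143 without the block). S100A11 was lower by a log2 fold change of -2.35 ± 0.18 (edgeR adjusted p = 0.000970). PTGR2 was higher, at 41.3, 48.9, 39.9 and 90.3 CPM against 15.2 to 17.2 (log2 fold change 1.81 ± 0.22, edgeR adjusted p = 0.00290). In the lipoxygenase branch ALOX5 was higher by 2.72 on the log2 scale (edgeR adjusted p = 0.00271) and LTC4S by 1.75 (edgeR adjusted p = 0.00810). ALOX5 had values in only 8 alternatives and was called in each. LTC4S was not called without the block (edgeR adjusted p = 0.0547). LTA4H was lower, at -0.83 (edgeR adjusted p = 0.0116). The sum of that list, which includes ALOX5 and LTC4S, was lower in myocytes, at 22.2 to 39.1 CPM against 40.2 to 54.0 in satellite cells.

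FAPs with a PTGS2 UMI after thinning were then set against FAPs without one in the same library, which gave 356, 69, 198 and 527 positive cells and 1462, 498, 1198 and 761 negative ones. The median depths of the compared groups were close, 14617 against 14591.5 UMIs at E13 and 16377 against 15893 at E23. Of 30 pathway genes 1 was higher and 1 lower, beside 2.27% of all 11955 genes called (1.3% higher, 0.962% lower). PLA2G4A was higher in PTGS2-positive FAPs, at 114, 121, 126 and 231 CPM from E13 to E23 against 48.0, 45.6, 56.7 and 109. The difference held in 4 of 4 libraries, with a log2 fold change of 1.18 ± 0.06 (edgeR adjusted p = 6.06e-07), and in 9 of 9 alternatives that kept the library block. SLCO2A1 was lower, at 21.0 CPM against 28.7, 52.7 against 69.9, 51.5 against 59.6 and 5.67 against 8.85 (log2 fold change -0.39 ± 0.09, edgeR adjusted p = 0.0339). It lost that call without any 1 library, with edgeR adjusted p of 0.0643 to 0.124. Without the block neither gene was called, at an edgeR adjusted p of 0.9998 for both.

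ANXA1 was compared in the same cells. PTGS2-positive FAPs held 344, 45.5, 268 and 161 CPM of it, and negative ones 288, 82.2, 196 and 92.9. It was higher in 3 of 4 libraries, and the log2 fold change of 0.35 ± 0.13 did not pass (edgeR adjusted p = 0.250, unadjusted p = 0.0205 in the same fit). Without E15 it was 0.47, with an edgeR adjusted p of 0.0139. Over all alternatives the adjusted p ran from 0.000767 to 0.9998. In PTGS2-positive FAPs the stress list was at 1513, 199, 144 and 175 CPM against 1517, 129, 101.9 and 174, and the immediate early list at 529, 393, 313 and 558 CPM against 439, 405, 318 and 541. Immune markers were at 10.9 to 30.9 CPM in the positive FAPs and at 11.1 to 31.2 in the negative ones.

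**Figure D5:**
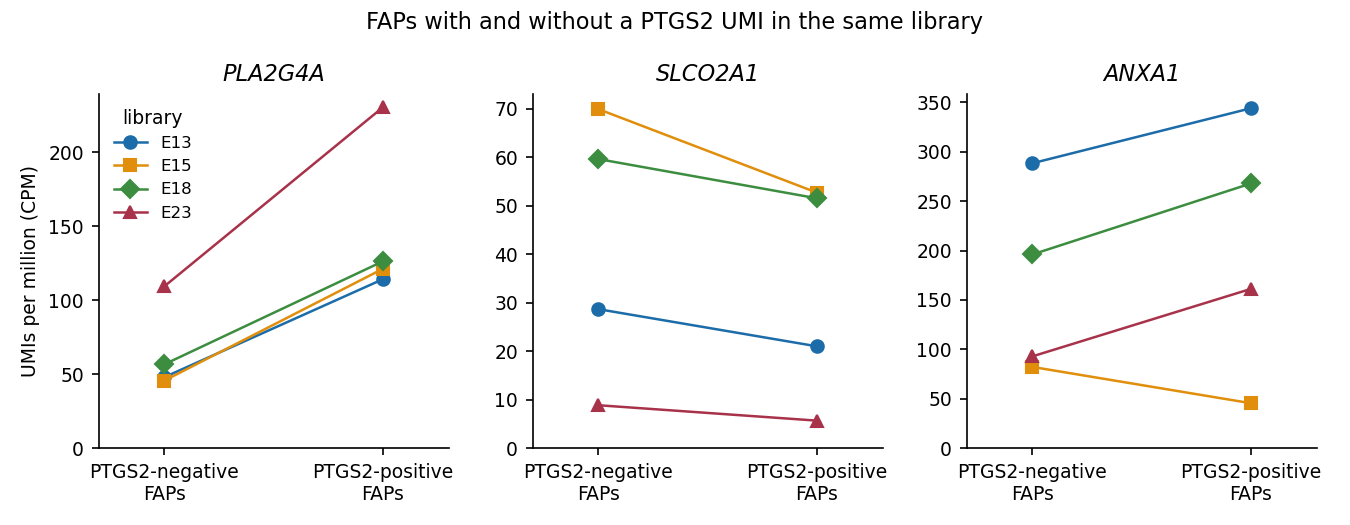
CPM of PLA2G4A, SLCO2A1 and ANXA1 in FAPs without and with a PTGS2 UMI, with a line for each library and axes that start at 0. PLA2G4A was higher in positive FAPs in each of the 4 libraries, at 114 to 231 CPM against 45.6 to 109, and ANXA1 was lower in positive FAPs at E15 alone.

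The same split by HPGDS, added after the levels had been seen, gave 686, 239, 678 and 147 positive FAPs. They were deeper than the negative ones in each library, by median UMIs of 16293.5 against 13534.5 at E13 and 16177 against 16045 at E23. Of 30 pathway genes 1 was higher and none lower by edgeR, beside 1.45% of all 12440 genes called (0.9% higher, 0.555% lower). This was SLCO2A1, at 29.2 CPM against 25.7, 80.4 against 56.9, 68.8 against 47.6 and 8.97 against 7.33, higher in 4 of 4 libraries (log2 fold change 0.42 ± 0.08, edgeR adjusted p = 0.0400). It was called in only 5 of 9 alternatives that kept the library block, and not without the block. Among the losses were those without E15 or E18, at edgeR adjusted p of 0.231 and 0.317. ANXA1 was at 351 CPM against 261, 83.4 against 73.0, 211 against 201 and 147 against 118, also higher in 4 of 4 libraries, and did not pass (log2 fold change 0.27 ± 0.06, edgeR adjusted p = 0.0839, with DESeq2 0.0393).

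The split by HPGD had only 21, 2, 7 and 12 positive FAPs, shallower at E15 and E18, with median UMIs of 5783 against 18576 and 7479 against 19821. ANXA1 was at 304 CPM against 299, 86.5 against 77.8, 198 against 206 and 169 against 121 (log2 fold change -0.09 ± 0.33, edgeR adjusted p = 0.951). At E15 it rested on 1 UMI. Of 27 pathway genes 1 was higher and none lower, beside 1.36% of all 10884 genes called (1.12% higher, 0.239% lower). It was ANXA11, a calcium-dependent membrane-binding annexin, at 231 CPM against 76.7, 865 against 42.1, 494 against 39.5 and 205 against 42.4 (log2 fold change 2.38 ± 0.29, edgeR adjusted p = 7.18e-13), and it was called in 10 of 10 alternatives. This p-value rests on few positive cells and on a spread pooled over genes, not on that of ANXA11 itself. The stress list moved with this split, at 1946 CPM against 1510.4, 4582 against 132, 729 against 106 and 404 against 172, and the immediate early list was higher in 4 of 4 libraries. KLF2, which led the genes called in this split, belongs to the stress list, and without it the list was at 1656 CPM against 1414, 519 against 94.5, 173 against 79.3 and 133 against 127. Cartilage markers were at 895 CPM against 106 at E13. Their part in the difference was not tested.

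Cycling was a contrast that had no part in choosing the genes, so all 4 could be tested. FAPs were called cycling when at least 2 of the 6 genes MKI67, TOP2A, CDK1, CCNB2, PLK1 and TPX2 had a UMI after thinning, which gave 526, 170, 868 and 414 cells against 1292, 397, 528 and 874. In this contrast 15% of all 11967 genes were called (7.1% higher, 7.93% lower), and none of the 4. PTGS2 was at 116 CPM in cycling FAPs against 107, 84.1 against 57.7, 78.9 against 72.8 and 404 against 348, higher in 4 of 4 libraries by 0.16 ± 0.07 on the log2 scale (edgeR adjusted p = 0.161). HPGD was at 2.41 CPM against 4.12, 0.277 against 11.9, 0.690 against 10.3 and 5.34 against 5.53 (log2 fold change -1.83 ± 0.58, edgeR adjusted p = 0.0639). The FAP richest in HPGD was non-cycling in each library. Without it the levels were 2.41 CPM against 3.25, 0.277 against 1.19, 0.690 against 3.70 and 5.34 against 2.21. The direction thus turned at E23, at 42 counts against 30. This removal took a cell from the non-cycling side only, and 2 FAPs at E23 held 5 or more HPGD UMIs. Whether the other of them was cycling was not examined. Without E23 HPGD was at -2.74, with an edgeR adjusted p of 0.00799, and over the alternatives its adjusted p ran from 3.21e-19 to 0.668. HPGDS was at -0.02 ± 0.12 (edgeR adjusted p = 0.941) and ANXA1 at 0.13 ± 0.13 (edgeR adjusted p = 0.585), with libraries on either side of 0 for both.

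In cycling satellite cells HPGD was lower, at 1.53, 5.23, 1.36 and 1.85 CPM against 3.12, 7.93, 4.32 and 3.13. It was lower in 4 of 4 libraries (log2 fold change -0.97 ± 0.22, edgeR adjusted p = 0.0190), in a contrast where 21.6% of all 13311 genes were called (10% higher, 11.6% lower). These levels rested on 8 to 41 counts in the cycling cells. With doublets kept the difference was -0.11 (edgeR adjusted p = 0.596). PTGS2, HPGDS and ANXA1 did not pass, with edgeR adjusted p of 0.407, 0.773 and 0.211. Whether the effect of cycling on HPGD differed between FAPs and satellite cells was not tested.

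More pathway genes were lower than higher in cycling cells, and most of the lower ones were annexins or their S100 partners. Of 29 tested in FAPs 1 was higher and 6 lower, and of 30 in satellite cells 3 were higher and 8 lower, both beside the shares of all genes above. The lower genes were 3 annexins, S100A10 and 2 receptors in FAPs. In satellite cells they were 4 annexins, S100A10, S100A11 and 2 receptors. The synthases PTGES2 and PTGES3 were higher in cycling satellite cells, by 0.27 and 0.26 on the log2 scale. They were called in 4 and 5 of 8 alternatives that kept the library block. TBXA2R was lower in both classes, at -0.72 ± 0.11 in FAPs (edgeR adjusted p = 0.00380) and -1.001 ± 0.10 in satellite cells (edgeR adjusted p = 0.000593). In FAPs it stood at 20.2, 25.5, 18.8 and 7.13 CPM in cycling cells against 28.1, 34.5, 30.4 and 16.2. ANXA2, ANXA4 and ANXA5 were lower in cycling FAPs, and ANXA4, ANXA6, ANXA7 and ANXA11 in cycling satellite cells. The call of ANXA4 in FAPs was lost with DESeq2 (adjusted p = 0.0860) and without E13, E15 or E18 (edgeR adjusted p of 0.0826, 0.0533 and 0.0714). In satellite cells ANXA7 lost its call without E23 (edgeR adjusted p = 0.0555), and ANXA11 without E13, E15 or E23 (edgeR adjusted p of 0.115, 0.108 and 0.201). LTA4H was higher in both, by 0.24 ± 0.06 (edgeR adjusted p = 0.0308) and 0.42 ± 0.07 (edgeR adjusted p = 0.00637), but in FAPs DESeq2 did not call it (adjusted p = 0.165), nor did edgeR without any 1 library. Without the library block no pathway gene was called in either class.

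Across the 16 sums of 4 classes and 4 libraries, the genes most like PTGS2, HPGDS and ANXA1 were ranked among 7164 genes by Pearson's r of log2(CPM + 1), a description over sums that share libraries and embryos. The class levels in these sums were used to choose the 4 genes, and r takes in the differences between classes. HGF, a growth factor for satellite cells, was closest to PTGS2, at r = 0.958. It averaged 165 CPM in FAPs and 44.8 in immune cells, against 4.66 in satellite cells and 1.14 in myocytes. ARHGAP6 followed at 0.957 and ADCY7, an adenylyl cyclase, at 0.954. HPGDS was closest to RASSF1, at r = 0.927, and EBF1, a transcription factor of mesenchymal cells, at 0.922. ANXA1 was closest to GSR, which encodes glutathione reductase, at r = 0.940, to KCTD12 at 0.937 and to the transcription factor CEBPB at 0.932. Among the members PTGS2 and ANXA1 were the most alike pair, at 0.884, and HPGD and ANXA1 the least, at 0.341.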

How the data were processed

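The authors deposited raw UMI counts per gene and barcode from Cell Ranger, version 7.1.0 in their notes and 9.0.0 in the file header, with no normalization. All 25487 gene symbols matched the RefSeq table. The limits on a barcode were 300.0 and 6500.0 detected genes, 1000.0 and 50000.0 UMIs, and 20.0% of counts in the 13 mitochondrial genes. They kept 49503 of 50646 barcodes, of which 5033 were removed as likely doublets with scrublet in scanpy 1.11.5, at a rate of 0.8% per 1000.0 barcodes, since its own threshold called 0 at E23. Libraries held 128674910 to 155367545 UMIs.

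Counts were summed per library and class. Across genes, edgeR 4.0.16 quasi-likelihood tests (R 4.3.3, TMM, filterByExpr, library as block, Benjamini-Hochberg adjustment, threshold 0.05) were run for 8 contrasts and checked on simulated data. DESeq2 1.42.0, library totals, no filter, no block, doublets kept, other gates and leaving out each library were alternatives. Both sums of a block come from the same pool of embryos and library, and their deviations from the group means correlated at 0.0826 to 0.938. The simulated data gave both sums of a library the same library effect. The check therefore does not cover contrasts with low correlations, such as the split by HPGD (0.0826 to 0.321) and immune cells against FAPs (0.196 to 0.479). Cells are not replicates. Outside the split by HPGD, p-values measure the spread between these 4 libraries, in part pooled over genes. In the split by HPGD they rest on a spread pooled over genes, not on that of each gene. There the unadjusted edgeR p of ANXA1 (0.789) was the normal tail of its log2 fold change over its SE.

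Members, lists and the genes named were chosen with earlier results of these data known. Every list gene that passed is named for FAPs against satellite cells and for the splits of FAPs by PTGS2, HPGD and HPGDS. For immune cells, myocytes and cycling cells only a part of those that passed is named. Of 61 pathway symbols, 21 were not analysed here. The titles of all samples give day 13, so the stage was taken from the age field. The gene most like HPGD across classes is not reported here.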

Additional observations from a re-analysis of the deposited data

Results flagged for a closer look

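In 8 cases a library went against others of the same contrast, with an exact counting interval of its log2 ratio on the other side of 0. These differences between libraries were not tested. ANXA1 in immune cells over FAPs was at -0.40 at E13 and above 0 in the later libraries. HPGDS in cycling over non-cycling FAPs was at 0.27 at E15 and 0.35 at E18 but below 0 at E13 and E23. ANXA1 in cycling FAPs was at -0.33 at E13 and above 0 later. In cycling satellite cells PTGS2 was at 0.41 at E23 and HPGDS at 0.55 at E13, both lower than in non-cycling cells in each other library. In PTGS2-positive over PTGS2-negative FAPs, HPGD was at -3.12 at E18, where few cells held its UMIs, and ANXA1 was at -0.85 at E15.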

How the results depend on the processing

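The libraries are single per stage, immune cells are few and HPGD counts are low, which limits those values most. The E13 library also stood apart by its stress list. Over all kept cells this list was at 2969 CPM at E13, against 174, 150 and 244 CPM at E15, E18 and E23. Its part in the E13 levels was not tested. Over the alternatives, 609 of 735 log2 fold changes of tested genes kept direction and side of the threshold, 107 lost the call, 6 gained it and 13 reversed. Of the members' levels by class 25 of 80 moved by more than the spread between libraries, and of their shares in FAPs 29 of 32 left the counting interval with another depth or none. The log2 ratio of FAPs over satellite cells was, with doublets kept, without limits on barcodes and with looser gates, 3.89, 3.73 and 4.52 for PTGS2 and 4.75, 4.501 and 4.53 for HPGDS. For HPGD it was -1.65 with stricter gates. The causes were not tested.

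Without the library block the calls over all genes fell from 5538 to 2245 (FAPs against satellite cells), 6319 to 3299 (myocytes), 5241 to 4248 (immune cells), 1799 to 146 and 2874 to 227 (cycling FAPs and satellite cells), and 148 to 9, 271 to 1 and 181 to 0 (FAPs split by HPGD, PTGS2 and HPGDS). Without 1 library they ran from 3332 to 4288, 4032 to 5981, 3825 to 5520, 885 to 1213 and 1463 to 2193, and 67 to 171, 117 to 256 and 36 to 268, in the same order. Pathway genes numbered, without the block, 3 higher and 3 lower in FAPs against satellite cells, 7 lower in myocytes, and 0 in either direction for both cycling contrasts and the splits by PTGS2 and HPGDS. Without 1 library, pathway genes lower in FAPs numbered 3 to 5, higher in cycling FAPs 0, higher and lower in cycling satellite cells 1 to 3 and 4 to 7, lower with PTGS2 0 to 1, and higher and lower with HPGDS 0 to 2 and 0 to 1. DESeq2 called 0 higher in cycling FAPs and 2 higher with HPGDS, library totals 0 with HPGDS, and no filter 3 lower with PTGS2, 2 higher and 2 lower with HPGDS.

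Among single genes, ANXA1 in the split by HPGD was 0.34 with doublets kept, 0.15 with library totals, 0.0194 without the block, 0.17 with positives from 2 UMIs and -0.34 to 0.0103 without 1 library. HPGDS in cycling FAPs was 0.0353 with library totals, 0.10 without the block and -0.15 to 0.12 without 1 library, and in cycling satellite cells 0.41 with doublets kept, 0.0443 without the block and -0.37 to 0.0716 without 1 library. ANXA1 passed in the split by HPGDS with DESeq2 (0.29) and no filter (0.26), and in that by PTGS2 with no filter (0.28), at 0.18 to 0.47 without 1 library. HPGD in cycling FAPs passed with no filter (-1.84) and ran from -2.74 to -1.09 without 1 library. In cycling satellite cells it did not pass with doublets kept (-0.11) or without the block (-0.91).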

Other observations

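Genes outside the pathway also differed between FAPs with and without PTGS2, and these were picked after their values were seen. Their calls were not followed over the alternatives. Over all genes, the calls in this split fell from 271 to 1 without the library block. IL6, an inflammatory cytokine, stood at 644, 1147, 609 and 540 CPM in PTGS2-positive FAPs against 264, 455, 168 and 285 in the others from E13 to E23, higher in 4 of 4 libraries (log2 fold change 1.33 ± 0.10, edgeR adjusted p = 3.43e-05). TNFAIP3, an inhibitor of NF-kB signalling, stood at 39.4, 29.5, 33.2 and 77.5 CPM against 16.4, 9.92, 10.5 and 32.3 (log2 fold change 1.37 ± 0.09, edgeR adjusted p = 1.02e-05). COL4A1, a basement membrane collagen, and ACTA2, smooth muscle actin, were lower, at -0.76 ± 0.08 and -0.57 ± 0.07 on the log2 scale (edgeR adjusted p = 0.000217 and 0.000939).

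In the split by HPGDS, CEMIP, a hyaluronan-binding protein, stood at 275, 162, 140.3 and 705 CPM in positive FAPs against 165, 81.1, 57.9 and 300.3 (log2 fold change 1.08 ± 0.08, edgeR adjusted p = 0.000532). GATA6, a transcription factor, was higher by 0.76 ± 0.07 on the log2 scale (edgeR adjusted p = 0.00220). The calls of CEMIP and GATA6 were not followed over the alternatives either. Over all genes, the calls in this split fell from 181 to 0 without the library block.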
